A study of Mus musculus with 82 samples.

Results

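EGF added to the thromboxane analog U46619 for 48 h was described in 10 RNA-sequencing samples of the 82 in the series. The samples are the 5 EGF+U46619 cultures and the 5 U46619 cultures of the EGF/U46619 batch, and they were chosen by their labels, not by any measured value. Both groups are primary aortic vascular smooth muscle cells (aVSMC) of C57BL/6 mice, and both received 1 µM U46619 for 48 h. The EGF+U46619 group received 10 µg/L EGF in addition. The growth medium before the experiment also held EGF, and all cultures were then kept in medium without serum and supplements for 24 h. The cultures of 1 replicate number form a culture set, so the comparison pairs 5 sets, in which the labels name 4 mice: sets 1 and 4 carry the same mouse number, while by the methods each replicate came from its own mouse. These were cells in culture without serum, and RNA of all cells of a well was measured together.

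EGF binds EGFR, a receptor tyrosine kinase whose main output in many cells runs through RAS and ERK1/2 to immediate early transcription factors of the AP-1 and EGR families and to feedback inhibitors of the same pathway. U46619 binds TP, a G protein-coupled receptor encoded by *Tbxa2r*, which raises calcium and contracts smooth muscle. Aortic smooth muscle cells in culture can leave the contractile state, marked by α-actin (*Acta2*) and smooth muscle myosin heavy chain (*Myh11*), for a proliferating and matrix-producing state, in which osteopontin (*Spp1*) is a known marker. The comparison asks what EGF adds where TP is already active.

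The 10 libraries held 19936925 to 32797224 counts. Levels are given as FPM, counts relative to the library total after TMM scaling (which equalises the bulk of genes between libraries), and a log2-fold change is positive where EGF+U46619 is higher. Smooth muscle markers were detected but unequal between sets. *Acta2* was at 3213.9, 1553.4, 4384.1, 5007.9 and 1098.4 FPM with U46619 in sets 1 to 5. It was at 2882.9, 1055.2, 3377.2, 4074.7 and 362.9 FPM with EGF+U46619. *Myh11* was at 27.8, 5.90, 200.2, 167.4 and 1.18 FPM with U46619 and 25.2, 3.62, 157.9, 123.4 and 0.478 FPM with EGF+U46619. Set 5 was lowest for both genes in both groups. In set 5, smooth muscle markers summed to 1427.6 FPM with U46619 and 606.2 FPM with EGF+U46619. Adventitial fibroblast markers summed there to 1387.8 and 1553.0 FPM. Set 5 also stood apart in mesothelial markers, whose list was added after the values were seen: their summed level was 282.2 FPM in its U46619 culture, against 32.8 to 75.5 FPM in the other 4 sets. Over 10197 genes of at least 5 FPM, the SD of the log2 difference within a set was 0.309 in set 5 and 0.152 to 0.208 in the others. Set 1 stood apart in endothelial and adipocyte markers, which summed to 1125.3 and 214.4 FPM in its U46619 culture, against 174.3 to 321.7 and 19.0 to 39.0 FPM in the other 4. Values are therefore given for each set for many of the genes and for some of the lists, and with 1 set left out where that changed a call. The other genes and lists have a fitted value only, which does not show how the sets differed.

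A single gene passed the threshold between the groups in the fit of the whole batch. That the other genes did not pass does not show that they were equal. All 20 libraries of the batch, including the control and EGF cultures, were fitted together with the culture set as a term. A differentially expressed gene (DEG) followed the study's definition, a false discovery rate (FDR, the p adjusted over all genes) under 0.05 in both edgeR and DESeq2, which model counts, and at least 5 FPM in 1 group. The 1 DEG is 0.00683% of the 14634 genes tested. The gene was *Prl2c3* (chr13:12790816-12800079 on the minus strand, GRCm38), which encodes a proliferin, a secreted hormone of the prolactin family that is induced in growing cells. *Prl2c3* was at 70.8, 75.8, 55.7, 216.6 and 19.2 FPM with U46619 and 103.5, 125.9, 101.6, 297.3 and 60.5 FPM with EGF+U46619 in sets 1 to 5. Each set was higher with EGF, but the groups overlapped, with set 4 above and set 5 below the other sets in both. In bulk RNA, more cells with the transcript and more transcript per cell cannot be told apart. The log2-fold change was 0.83 ± 0.13 (± the standard error, SE; n = 5 sets), or 1.77-fold, with an FDR of 0.0404 in edgeR and 2.12e-05 in DESeq2. The edgeR FDR rose above 0.05 when any 1 set was left out (0.0686 to 0.510), and the log2-fold change then lay between 0.64 without set 5 and 0.93 without set 4. It was also above 0.05 without the control library of set 3 (FDR = 0.0685). With the mouse number, which sets 1 and 4 share, in place of the culture set, the call was lost (edgeR FDR = 1.00), as it was with all 40 libraries of 48 h fitted by mouse and treatment (FDR = 1).

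Proliferin reads could not be assigned to 1 gene with certainty. Of the 50-base windows of *Prl2c3* transcripts, 60.0% occur unchanged in *Prl2c2*, and the authors counted reads that align to several places. *Prl2c2* was at 120.5, 126.6, 59.6, 224.7 and 32.1 FPM with U46619 and 160.5, 228.2, 100.5, 284.7 and 107.5 FPM with EGF+U46619. Both copies were thus highest in set 4 and moved most in set 5, with a log2-fold change of 0.80 ± 0.17 for *Prl2c2* (FDR = 0.262 in edgeR and 0.0116 in DESeq2).

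The 250 bases before the RefSeq start of *Prl2c3* (chr13:12800080-12800329 on the minus strand, GRCm38.p6) are shown because it is the gene that passed. Capitals mark a match to TGANTCA, a pattern for AP-1 sites in which N stands for any base. The match here reads TGAATCA. AP-1 is a dimer of FOS and JUN proteins downstream of ERK.
Prl2c3: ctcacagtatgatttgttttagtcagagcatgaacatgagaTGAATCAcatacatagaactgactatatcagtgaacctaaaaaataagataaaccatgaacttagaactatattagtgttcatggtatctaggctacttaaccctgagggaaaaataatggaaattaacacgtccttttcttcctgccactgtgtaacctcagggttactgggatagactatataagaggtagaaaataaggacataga
The motif lies 209 to 203 bases before the start. The letters TGANTCA, searched on both strands, occur in 6.75% of 32851 promoters of this length, and in 4.46% of the 9729 promoters of genes with at least 5 FPM. A match is a description of the letters, not a shown binding site.

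Below this single call, 631 genes had an unadjusted edgeR p under 0.05 (4.31% of the genes tested). In the same direction in all sets were 716 genes that were higher in 5 of 5 (4.89%) and 756 that were lower in 5 of 5 (5.17%). The median log2-fold change over all genes was 0.0032. The genes described next are those of smallest edgeR p among genes of at least 5 FPM that went the same way in 5 of 5 sets. They did not pass in both tools, and their values are given as such.

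Osteopontin had the largest difference among them. *Spp1* (chr5:104435118-104441050, plus strand) was at 83.9, 256.8, 136.6, 246.5 and 129.6 FPM with U46619 and 138.8, 1105.1, 706.1, 1030.9 and 869.2 FPM with EGF+U46619 in sets 1 to 5. The EGF+U46619 cultures of sets 2 to 5 lay above every U46619 culture, while that of set 1 lay within their range. The log2-fold change was 2.15 ± 0.39 (SE, n = 5), with an FDR of 0.108 in edgeR and 0.00339 in DESeq2. Without set 1 the gene passed in both tools (edgeR FDR = 0.0025, log2-fold change 2.28). The mean levels of *Spp1* in the batch were 36.4 FPM in the control and 86.3 FPM with EGF alone, then 170.7 FPM where U46619 was given and 770.0 FPM where both were.

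Transcription factors and signalling genes followed. *Egr3*, an immediate early zinc finger factor downstream of ERK, was at 3.01, 3.20, 1.90, 3.72 and 1.56 FPM with U46619 and 5.08, 7.99, 3.91, 6.63 and 4.98 FPM with EGF+U46619. It was low in all cultures, and the groups did not overlap. Its log2-fold change was 1.08 ± 0.21 (edgeR FDR = 0.185, DESeq2 FDR = 0.00339). *Prkg2*, a cGMP-dependent protein kinase, was at 15.0, 35.0, 6.07, 9.69 and 3.77 FPM with U46619 and 23.2, 68.6, 13.3, 16.8 and 5.58 FPM with EGF+U46619, higher with EGF in each set and with a log2-fold change of 0.84 ± 0.17 (edgeR FDR = 0.185). *Arhgap22* had 0.44 ± 0.11, and *Tspan5*, a tetraspanin, had a similar difference in each set, between 0.20 and 0.28 (0.24 ± 0.06).

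Secreted factors and receptors were also among the higher genes. *Esm1*, the secreted proteoglycan endocan, was at 2.20, 0.823, 20.9, 1.63 and 7.64 FPM with U46619 and 2.28, 1.64, 56.0, 4.15 and 16.9 FPM with EGF+U46619. Its level differed more between sets than between groups, and set 1 had almost no difference. The log2-fold change was 1.10 ± 0.20 (edgeR FDR = 0.108, DESeq2 FDR = 0.00339). *Il1rl1*, the receptor of interleukin-33, was at 0.382, 11.0, 7.28, 24.2 and 16.2 FPM with U46619 and 1.19, 28.6, 17.9, 33.9 and 55.3 FPM with EGF+U46619, near 0 in set 1 and higher with EGF in each set (1.18 ± 0.26, edgeR FDR = 0.282). *P2ry1*, an ADP receptor, passed in both tools (log2-fold change 1.39 ± 0.22, edgeR FDR = 0.0404) but had 1.08 FPM on average with EGF+U46619, below the 5 FPM minimum, and is named after its values were seen.

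Metabolic enzymes and transporters completed the upper end. *Aldh3a1*, an aldehyde dehydrogenase, was at 1.82, 1.69, 3.99, 5.45 and 9.10 FPM with U46619 and 2.04, 3.55, 10.9, 17.4 and 43.3 FPM with EGF+U46619, with a difference from 0.14 in set 1 to 2.19 in set 5 and a log2-fold change of 1.52 ± 0.35 (edgeR FDR = 0.352). *Slc7a11*, the cystine importer that feeds glutathione synthesis, had 0.54 ± 0.13 (edgeR FDR = 0.523). *Ank*, which moves pyrophosphate out of the cell, was at 184.97, 94.92, 94.10, 211.35 and 60.02 FPM with U46619 and 225.41, 123.53, 145.44, 260.74 and 118.00 FPM with EGF+U46619 (0.50 ± 0.11, edgeR FDR = 0.268). *Enpp1*, named after its values were seen, which makes extracellular pyrophosphate from ATP, had 0.86 ± 0.27 and was higher in 5 of 5 sets (edgeR FDR = 0.856).

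**Figure D1:**
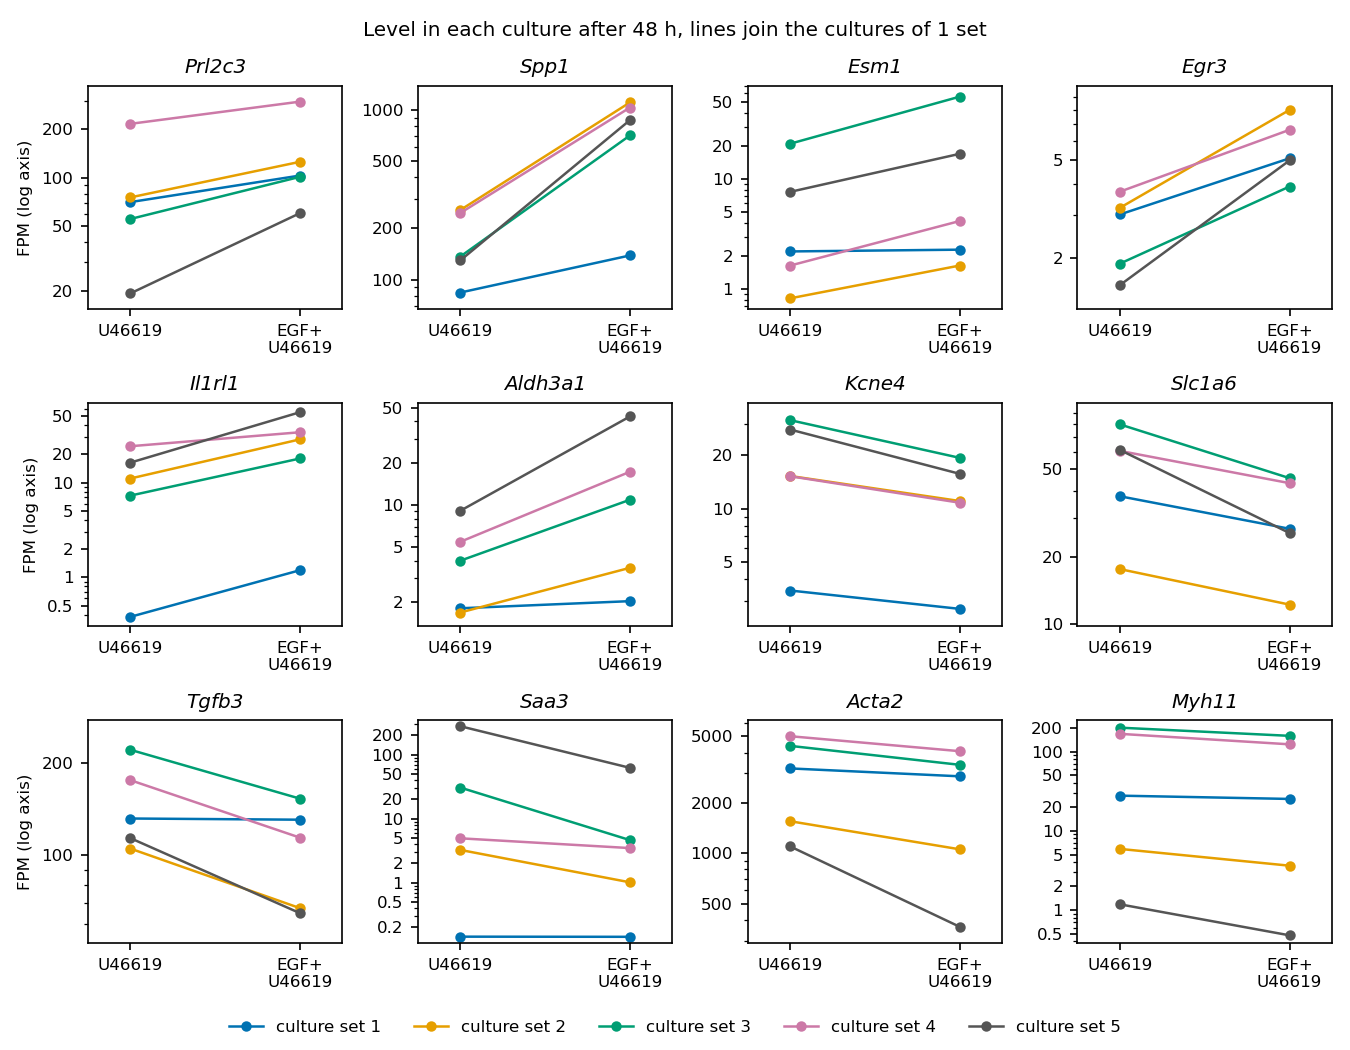
FPM on a log axis in each of the 10 cultures for 12 genes, with U46619 on the left and EGF+U46619 on the right of each panel and a line for each culture set. *Prl2c3* was higher with EGF in all 5 sets, while *Kcne4*, *Acta2* and *Myh11* were lower in all 5, and sets differed widely in level.

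The lower end held ion and amino acid transport genes first. *Kcne4* (chr1:78816758-78820028, plus strand), an accessory subunit that dampens potassium channels, was at 3.44, 15.3, 31.6, 15.2 and 28.0 FPM with U46619 and 2.71, 11.0, 19.3, 10.8 and 15.7 FPM with EGF+U46619. Each set was lower with EGF and set 1 was low in both groups. The log2-fold change was −0.59 ± 0.12 (edgeR FDR = 0.185, DESeq2 FDR = 0.0061). *Slc1a6*, a glutamate transporter, was at 37.7, 17.7, 79.8, 60.6 and 61.2 FPM with U46619 and 26.9, 12.2, 45.6, 43.3 and 25.7 FPM with EGF+U46619, with a log2-fold change of −0.73 ± 0.15 (edgeR FDR = 0.205, DESeq2 FDR = 0.00825).

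Growth factor and matrix signalling genes followed. *Tgfb3*, a TGF-β ligand, was at 131.8, 105.3, 220.5, 175.7 and 113.8 FPM with U46619 and 130.7, 67.4, 152.9, 114.2 and 64.9 FPM with EGF+U46619. Sets 2 to 5 were lower with EGF, and set 1 hardly differed (−0.52 ± 0.15, edgeR FDR = 0.775). *Pcsk5*, a proprotein convertase that activates secreted precursors, had −0.71 ± 0.18, and *Ddr1*, a collagen receptor kinase, had −0.33 ± 0.09 (edgeR FDR = 0.606 and 0.703). *Mest*, an imprinted gene, had −0.75 ± 0.21, and *Prag1*, a pseudokinase, had −0.64 ± 0.19, with −0.01 in set 1 and −1.40 in set 5. The other genes of this end were *Mrgpre*, *Fam210b*, *Gramd3*, *Gm6665* and *Gm17501*, with log2-fold changes from −0.51 to −0.28 and edgeR FDR from 0.606 to 0.775. The groups did not overlap for *Gm6665*, which was at 8.17, 8.60, 6.99, 6.63 and 9.38 FPM with U46619 and 6.56, 5.38, 6.45, 5.64 and 6.10 FPM with EGF+U46619.

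**Figure D2:**
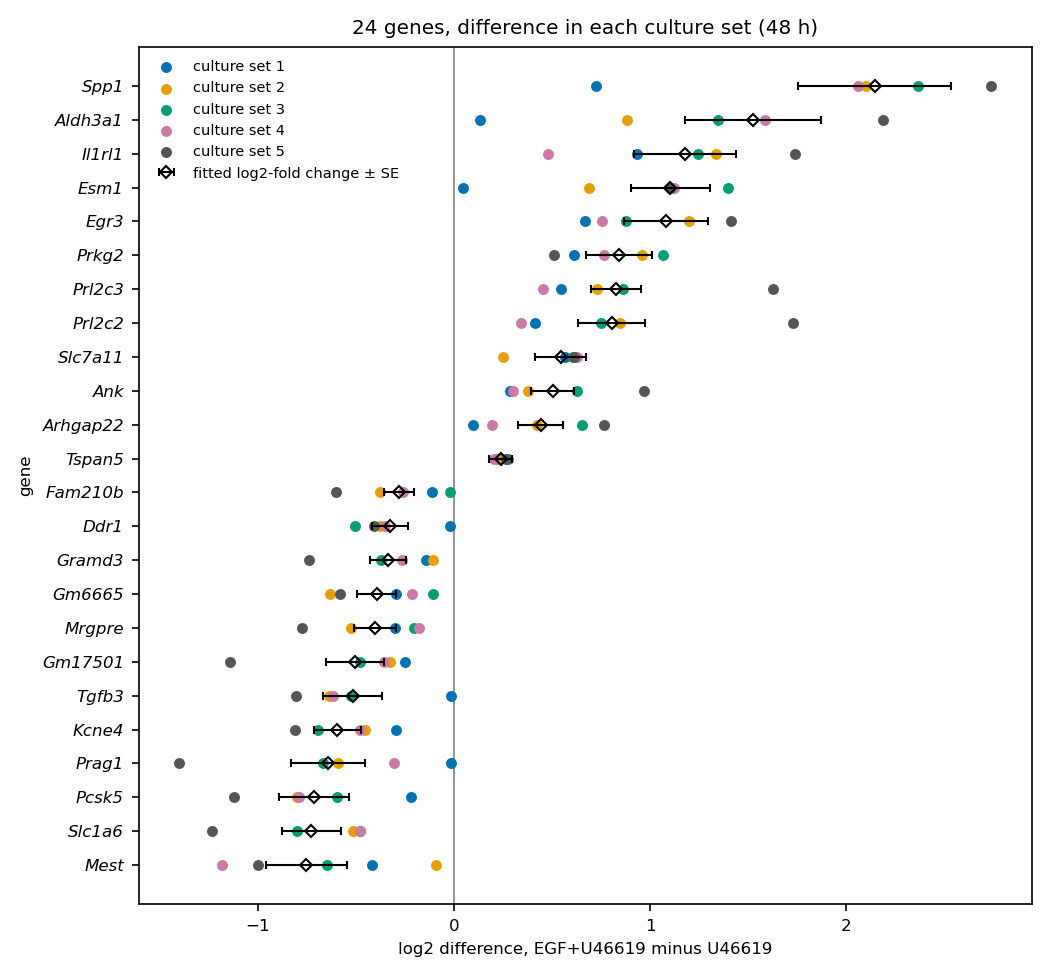
Log2 difference of EGF+U46619 minus U46619 in each culture set for the 12 highest and 12 lowest genes, with the fitted log2-fold change ± SE as a diamond. Set 5 had the largest difference for 17 of the 24 genes and set 1 the smallest for 12. *Prl2c3* was the only gene of the 24 that passed in both tools.

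The same 10 libraries were also fitted alone, with the culture set as a term and without the control and EGF cultures. The biological coefficient of variation that edgeR estimated was 0.0854 in this fit and 0.134 with all 20 libraries of the batch. In the fit of the 10 libraries 62 genes passed (0.453%), 31 higher (0.226% of 13693 genes) and 31 lower (0.226%), and 10.3% of genes had an unadjusted edgeR p under 0.05. Of the 62, 51 had one with the 20 libraries. Leaving out 1 set gave 54 higher and 124 lower genes without set 1, 5 and 3 without set 2, 0 and 0 without set 3, 12 and 9 without set 4, and 43 and 39 without set 5, so the count rests on which sets are in the fit. Without set 3 the log2-fold change had the same sign for 61 of the 62. Of the 62 genes 60 went the same way in 5 of 5 sets, and for 60 the FPM ranges of the groups overlapped.

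The members of the 62 named here were chosen after their values were seen. The genes that rose in the fit of the 10 libraries included 2 of 14 tested AP-1, EGR and MYC factors and 3 of 26 tested ERK and EGFR feedback genes, *Il1rl1* among the latter. They include *Egr3*, *Egr2* (0.57, FDR = 0.0388 in edgeR), and the ERK feedback genes *Errfi1* (0.41), which encodes an inhibitor of EGFR, and *Dusp4* (0.33), a phosphatase of ERK. The chromatin proteins *Hmga1* (0.43) and *Hmga2* (0.49) rose as well, and *Hmga1b*, which rose too, is a copy in which 89.0% of 50-base windows also occur in *Hmga1*. *Spp1* (2.02, FDR = 0.00286), *Hgf* (0.58), the ligand of MET, *Kitl* (0.37), the ligand of KIT, and *Angptl4* (0.58), an inhibitor of lipoprotein lipase, were secreted factors among the risers. *Itga6* (0.57), a laminin-binding integrin subunit, and *S1pr3* (0.34), a sphingosine-1-phosphate receptor, rose too.

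Of the genes that fell in that fit, *Saa3*, an acute phase apolipoprotein, had the largest fall (−1.92, FDR = 0.00722) and was at 0.143, 3.25, 30.6, 4.93 and 278.5 FPM with U46619 and 0.143, 1.01, 4.63, 3.47 and 62.3 FPM with EGF+U46619 in sets 1 to 5. The level of *Saa3* ranged from near 0 in set 1 to its highest in set 5, and set 1 did not differ. *C4b* (−0.53), a complement component, and *Ptx3* (−0.56), a pentraxin, fell too. *Nid2* (−0.76), a basement membrane linker, *Eln* (−0.60), the elastin precursor, and *Ccn5* (−0.49), a matricellular inhibitor of smooth muscle growth, fell. *Eln* was at 267.4, 7.27, 16.1, 14.7 and 1.13 FPM with U46619 and 209.6, 3.31, 8.87, 10.9 and 0.837 FPM with EGF+U46619, so that set 1 held most of its reads. *Csrp1* (−0.33) and *Ppp1r14a* (−0.52), an inhibitor of myosin phosphatase, were the 2 of 25 tested contractile genes that passed as lower in that fit. *Bnc1* (−0.84), a zinc finger gene that fell too, is a mesothelial marker.

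*Egr2* is shown beside *Prl2c3* because its 250 bases before a RefSeq start (chr10:67537619-67537868 on the plus strand, GRCm38.p6) hold a CArG box, the motif of serum response factor, in capitals.
Egr2: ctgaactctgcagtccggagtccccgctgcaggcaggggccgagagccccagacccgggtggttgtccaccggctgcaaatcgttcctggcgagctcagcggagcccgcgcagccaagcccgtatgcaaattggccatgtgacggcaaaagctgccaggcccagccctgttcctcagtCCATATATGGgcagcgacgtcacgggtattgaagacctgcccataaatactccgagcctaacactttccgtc
The box lies 72 to 63 bases before the start. CArG boxes, searched on both strands, occur in 1.47% of all promoters of this length and in 1.22% of those of genes with at least 5 FPM. Among the 31 genes that rose in the fit of the 10 libraries, 21 had a promoter in the table, and *Egr2* alone held a CArG box, while *Prl2c3*, *Hmga1b* and *Itih2* held TGANTCA. Among the 31 that fell, 20 had a promoter and 0 held either motif. Of all 7540 genes of at least 5 FPM that had a promoter, 413 held TGANTCA and 110 a CArG box. Counts this small do not tell the genes that rose and fell apart, and no test was made. The promoter of *Itih2* (chr2:10130684-10130933 on the minus strand), which encodes a hyaluronan-binding serum protein, is given to compare its TGANTCA site with that of *Prl2c3*.
Itih2: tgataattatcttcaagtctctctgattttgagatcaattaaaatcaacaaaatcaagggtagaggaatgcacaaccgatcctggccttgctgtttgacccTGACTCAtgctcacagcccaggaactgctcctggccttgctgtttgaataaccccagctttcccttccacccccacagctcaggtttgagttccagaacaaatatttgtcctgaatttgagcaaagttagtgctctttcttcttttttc

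Gene lists for the receptors, their outputs and the states of these cells were described by their counts and medians. The lists were chosen with earlier results of these data known, so their counts are not independent evidence of a direction. With the 20 libraries 0 of their members were a DEG, so the counts below are of members with an unadjusted edgeR p under 0.05, against 4.31% of all genes, and each median stands against 0.0032 over all genes tested.

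The receptors themselves did not differ detectably. *Egfr* was at 32.8, 74.4, 80.8, 61.0 and 197.6 FPM with U46619 and 31.5, 68.2, 99.2, 66.7 and 168.4 FPM with EGF+U46619, with a log2-fold change of 0.01 ± 0.21. It was highest in set 5 of both groups and was on the higher side with EGF in sets 3 and 4 and on the lower side in the others. *Tbxa2r*, which encodes TP, was at 38.1, 35.8, 31.2, 36.2 and 14.9 FPM with U46619 and 36.5, 29.6, 22.1, 34.5 and 7.81 FPM with EGF+U46619 (−0.34 ± 0.15, edgeR FDR = 1), lower with EGF in each set. *Agtr1a*, which encodes the AT1 angiotensin receptor, had −1.46 ± 0.40 at no more than 5.09 FPM in any culture. Of the 21 tested genes of prostanoid and G protein signalling, 1 higher and 2 lower had an unadjusted p under 0.05 (median 0.03). The higher gene was *Ptgs1*, cyclooxygenase 1, at 0.40 ± 0.15.

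EGFR ligands and outputs with an unadjusted p under 0.05 lay mostly on the higher side. Of 9 EGFR family members and ligands, *Ereg* (0.32 ± 0.13) and *Btc* (0.56 ± 0.22), which encode the ligands epiregulin and betacellulin, were the 2 higher genes at an unadjusted p under 0.05, against 0 lower (median 0.01). Of 26 ERK and EGFR feedback genes, 5 higher and 1 lower had an unadjusted p under 0.05, 10 were higher in 5 of 5 sets, and the median was 0.13. They include *Spred1* (0.29 ± 0.11), an inhibitor of RAS signalling, *Rasa1* (0.30 ± 0.11), a RAS GTPase-activating protein, *Errfi1* (0.44 ± 0.20), *Etv5* (0.18 ± 0.07), an ETS factor downstream of ERK, and *Il1rl1*, which is a cytokine receptor and no inhibitor. *Spry1*, another inhibitor of the pathway, was the lower one at −0.48 ± 0.21. Of 14 AP-1, EGR and MYC factors, only *Egr3* and *Egr2* (0.56 ± 0.19) were among them (median 0.03).

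Contractile genes lay mostly on the lower side. Of 25 tested members, 12 were lower and 1 higher at an unadjusted p under 0.05, 11 were lower in 5 of 5 sets, and the median was −0.34. The median in sets 1 to 5 was −0.10, −0.47, −0.15, −0.27 and −0.59. All sets were thus below 0, with set 5 lowest. *Myl9*, the regulatory myosin light chain, was at 366.9, 374.9, 796.2, 771.9 and 222.2 FPM with U46619 and 310.5, 258.9, 618.2, 639.1 and 87.9 FPM with EGF+U46619 (−0.53 ± 0.16, edgeR FDR = 0.836). *Acta2* had −0.55 ± 0.21, *Myh11* −0.43 ± 0.19, *Actg2*, smooth muscle γ-actin, −0.67 ± 0.23, and *Mylk*, myosin light chain kinase, −0.60 ± 0.23 (edgeR FDR = 0.995, 1, 0.96 and 0.994). *Csrp1*, a LIM protein of the actin cytoskeleton, was at 712.2, 340.0, 604.8, 689.6 and 236.3 FPM with U46619 and 608.2, 253.6, 471.6, 575.9 and 180.7 FPM with EGF+U46619 and had a similar difference in each set, between −0.42 and −0.23 (−0.33 ± 0.10, edgeR FDR = 0.818). *Synpo2*, an actin-binding protein, had −0.45 ± 0.14. *Cav1*, which encodes caveolin-1, was the member on the other side at 0.19 ± 0.08. *Tagln*, *Cnn1* and *Tpm1* are listed at 0 in all libraries, like all genes of their chromosome, and were not analysed here.

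Matrix lists lay lower, less evenly. Small leucine-rich proteoglycans and matricellular genes had a median of −0.17 over 22 members (2 higher and 5 lower), and the medians in sets 1 to 5 were 0.03, −0.09, −0.02, −0.07 and −0.69. Set 5 thus stood apart. *Lum* (−1.65 ± 0.47), which encodes lumican, was at most 8.30 FPM. Collagens and elastic fibre genes had a median of −0.15 over 32 members (1 higher and 2 lower), with *Col11a1* at −0.43 ± 0.15 and *Col15a1*, on the other side, at 0.74 ± 0.28. Matrix proteases and inhibitors had a median of −0.13 over 31 (1 higher and 3 lower), with *Mmp17* at −0.36 ± 0.15 and *Serpinb2*, an inhibitor of urokinase, at 1.26 ± 0.32 from no more than 2.60 FPM. Of 15 integrins, 5 higher and 1 lower had an unadjusted p under 0.05 (median 0.04), among them *Itga6* (0.59 ± 0.17) and *Itgb3* (0.35 ± 0.12), a subunit of the receptor that binds osteopontin.

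Growth factors and TGF-β, BMP and WNT signals went both ways. Of 54 tested members, 3 higher and 8 lower had an unadjusted p under 0.05 (median −0.04). The lower ones include *Tgfb2* (−0.41 ± 0.14), *Tgfb3*, *Fgfr2* (−0.48 ± 0.15) and *Id4* (−0.65 ± 0.21), a target of BMP signalling. The higher ones were *Angptl4*, *Vegfc* (0.21 ± 0.10), a growth factor of lymphatic vessels, and *Tgfbr1* (0.36 ± 0.13). Of 23 cytokine and chemokine genes 2 higher and 2 lower were past it (median −0.02), and *Ccl11* (2.05 ± 0.82) and *Ccl20* (−1.11 ± 0.33) were highest in set 5, at no more than 5.10 and 3.63 FPM.

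The cell cycle lists had small positive medians that set 5 led. DNA replication genes had a median of 0.08 over 38 members with 0 past an unadjusted p of 0.05, and medians of −0.03, −0.07, 0.01, 0.03 and 0.34 in sets 1 to 5. Mitotic genes had 0.05 over 37, also with 0 past it, and −0.02, −0.07, 0.07, 0.03 and 0.23 by set. *Cdca7* (0.25 ± 0.21), *Ccne2* (0.18 ± 0.17), *Bub1* (0.17 ± 0.20) and *Ect2* (−0.13 ± 0.21) had the smallest p of these lists. Ribosome biogenesis genes had 0.09 over 35, with 2 higher and 0 lower, which were *Npm1* (0.24 ± 0.10), nucleophosmin, and *Utp15* (0.15 ± 0.07). Of 23 genes of the G1 phase and senescence, *Hmga1* (0.41 ± 0.13) and *Hmga2* (0.49 ± 0.15) were higher and 0 were lower (median 0.02).

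**Figure D3:**
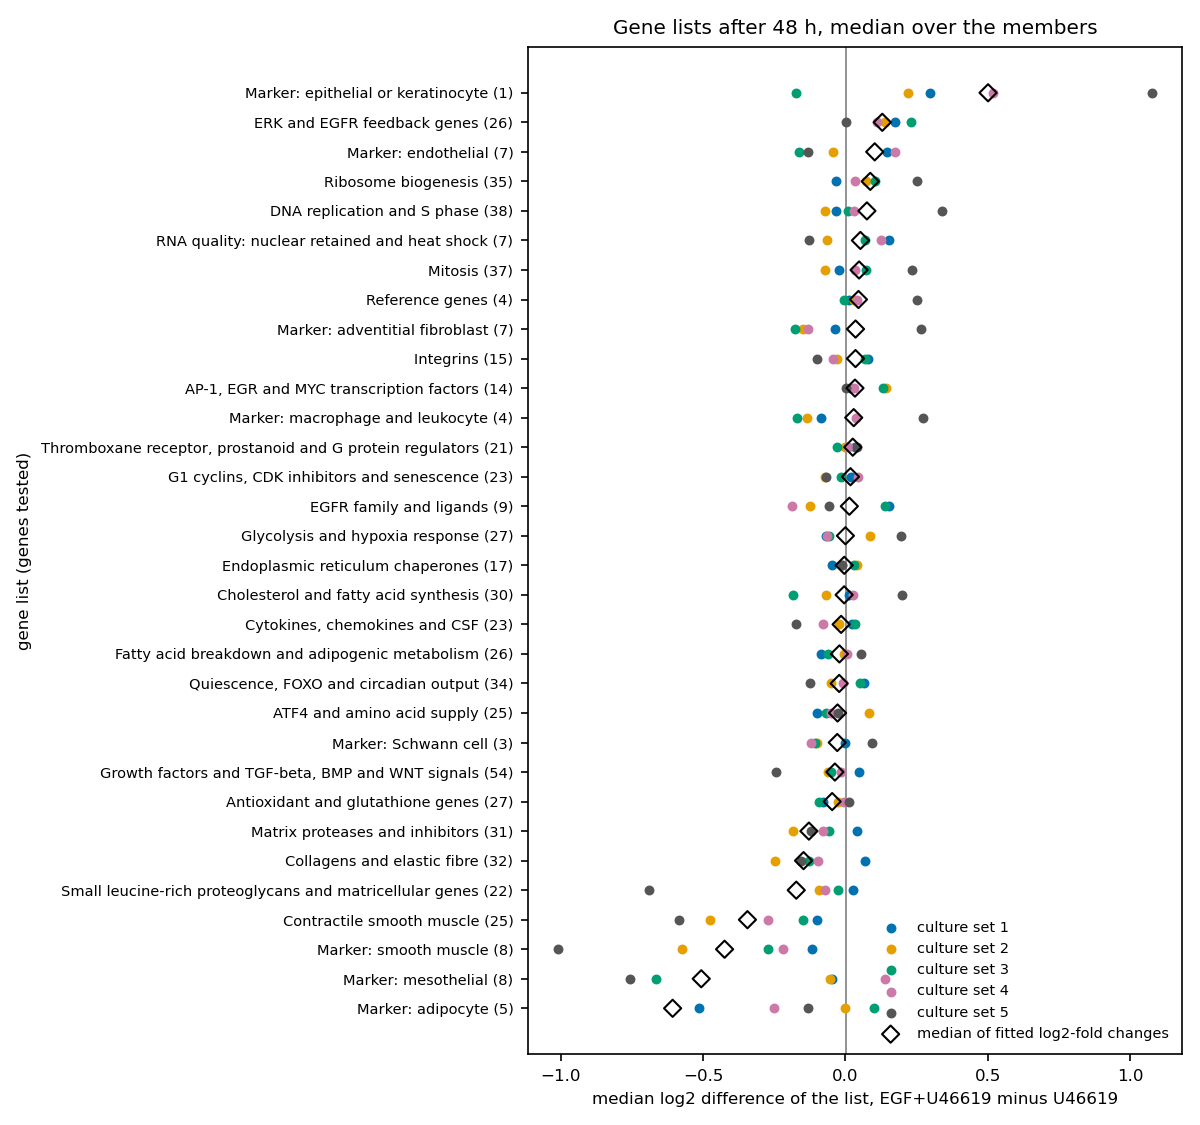
Median log2 difference of each gene list in each culture set (points) and median of the fitted log2-fold changes (diamonds), with the number of genes tested in brackets and a grey line at the median of all genes. The contractile list was below 0 in all 5 sets with a median of −0.34, and set 5 lay farthest from 0 for several lists.

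Metabolic lists lay near the median of all genes in their fitted values, though not in each set. The medians were −0.0044 over 30 (0 higher and 0 lower) for cholesterol and fatty acid synthesis, −0.0041 over 17 (0 higher and 0 lower) for endoplasmic reticulum chaperones, and −0.02 over 26 (2 higher and 0 lower) for fatty acid breakdown. Glycolysis and hypoxia response genes numbered 27 (1 higher and 0 lower) with a median of −6.7e−05, the higher one being the enolase *Eno2* (0.26 ± 0.12). Their medians in sets 1 to 5 were −0.07, 0.09, −0.06, −0.07 and 0.20. Those of cholesterol and fatty acid synthesis were 0.01, −0.07, −0.19, 0.03 and 0.20. Genes of ATF4 and amino acid supply had −0.03 over 25 (1 higher and 0 lower), where the higher one was *Slc7a11*. Antioxidant genes had −0.05 over 27 (1 higher and 3 lower), with *Sod3*, the extracellular superoxide dismutase, at −0.41 ± 0.14 and *Aldh3a1* on the other side. Quiescence and circadian genes had −0.02 over 34 (1 higher and 0 lower), the higher one being *Gadd45a* (0.27 ± 0.08), a growth arrest gene, while its relative *Gadd45b* had −0.36 ± 0.17. The reference genes had −0.07 ± 0.12 (*Gapdh*), 0.02 ± 0.10 (*Eef2*), 0.07 ± 0.08 (*Hsp90aa1*) and 0.09 ± 0.09 (*Hsp90ab1*), and *Klf15*, a Krüppel-like factor, had −0.14 ± 0.15. The median of the reference genes was 0.25 in set 5 and −0.0038 to 0.042 in the others. A list of 12 genes that the study had picked from the series, using these 48 h libraries and those of 24 h, had a median of −0.15 (1 higher and 5 lower). As these libraries took part in that choice, the count is not independent evidence of its direction.

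Markers of other cell types were given beside these lists, since they were not equal between sets. Smooth muscle markers summed to 1427.6 to 6329.8 FPM with U46619 and 606.2 to 5272.0 FPM with EGF+U46619, with medians of −0.12, −0.57, −0.27, −0.22 and −1.01 in sets 1 to 5. Endothelial markers summed to 174.3 to 1125.3 and 147.9 to 1259.0 FPM (7 of 8 tested, *Kdr* −0.79 ± 0.28), highest in set 1 of both groups. Their medians were 0.15, −0.04, −0.16, 0.17 and −0.13 by set. Adventitial fibroblast markers summed to 522.0 to 1387.8 and 569.8 to 1553.0 FPM (7 of 8 tested), highest in set 5 of both groups. Macrophage and leukocyte markers summed to 42.6 to 78.9 and 40.6 to 75.2 FPM, and *Ptprc*, *Adgre1*, *Fcgr1* and *Tyrobp* were not among the 4 of 8 tested. Adipocyte markers summed to 19.0 to 214.4 and 19.2 to 149.2 FPM, also highest in set 1 of both groups (5 of 6 tested). The median of their fitted log2-fold changes was −0.61, while their medians by set were −0.51, 0, 0.10, −0.25 and −0.13. Of the epithelial markers *Krt18* alone was tested, at 0.50 ± 0.25. Mesothelial markers summed to 32.8 to 282.2 and 33.8 to 268.4 FPM, with 7 of 8 below 0 and a median of −0.51, and their medians of −0.05, −0.06, −0.67, 0.14 and −0.76 in sets 1 to 5 were far below 0 in sets 3 and 5 only. The mesothelial marker *Upk3b*, uroplakin 3b, was at 0.287, 0.823, 9.11, 0.151 and 51.0 FPM with U46619 and 0.143, 0.312, 2.01, 0.248 and 11.8 FPM with EGF+U46619 (−1.83 ± 0.33, edgeR FDR = 0.108). *Upk3b* was the DEG found when set 4 was left out (log2-fold change −2.03), and *Spp1* the one found without set 1. Genes of nuclear-retained and heat shock RNA had a median of 0.05 with 0 of 7 past an unadjusted p of 0.05. What part these markers have in the differences was not tested.

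EGF was also added without U46619 in the same batch, which asks whether the EGF difference is the same without TP stimulation. EGF against control gave 8 DEG (0.0547%), with 12.4% of genes at an unadjusted p under 0.05. *Prl2c3* passed there as well, at 0.81 ± 0.13 without and 0.83 ± 0.13 with U46619, and *Kcne4* passed there, at −0.94 ± 0.11 without and −0.59 ± 0.12 with it. The 8 DEG became 9, 0, 1, 2 and 5 without sets 1 to 5 in turn, and *Prl2c3* remained among them only without set 5. *Slc7a11* (0.81 ± 0.14) and *Etv5* (0.54 ± 0.07) passed without U46619 and had 0.54 ± 0.13 and 0.18 ± 0.07 with it. *Spp1* had 1.15 ± 0.39 without and 2.15 ± 0.39 with U46619, *Esm1* 0.32 ± 0.19 and 1.10 ± 0.20, *Egr3* 0.41 ± 0.21 and 1.08 ± 0.21, and *Angptl4* −0.15 ± 0.20 and 0.57 ± 0.19. The test of the difference between the 2 EGF effects found 0 genes in edgeR and 0 in DESeq2, and 431 genes (2.95%) had an unadjusted p under 0.05 in edgeR. For *Spp1* the difference of the log2-fold changes was 1.00 ± 0.54 (edgeR FDR = 0.984), for *Egr3* 0.67 ± 0.30 and for *Angptl4* 0.72 ± 0.28 (edgeR FDR = 0.984 and 0.984). A difference was not detectable with 5 sets, which does not show that the effects were equal. The 2 comparisons share no library but come from the same culture sets. Of the 422 genes with at least 5 FPM and an unadjusted p under 0.05 with U46619, 375 had the same sign without it (88.9%, against 61.0% of 10197 genes).

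U46619 was also compared with the control, a comparison that shares the U46619 libraries, so values are given only side by side. *Prl2c3* had 1.60 ± 0.13 for U46619 against control and *Spp1* 2.08 ± 0.40 (edgeR FDR = 1.90e-06 and 0.00141). *Kcne4* had −1.45 ± 0.11 and *Tbxa2r* −1.16 ± 0.15 (edgeR FDR = 1.75e-06 and 4.94e-05). *Esm1* (−0.40 ± 0.21) and *Aldh3a1* (−0.84 ± 0.36) were on the lower side with U46619 and on the higher side with EGF added. *Nid2* (1.00 ± 0.23) was on the higher side with U46619 and on the lower side with EGF added (−0.72 ± 0.23).

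After 24 h the same comparison was made in 12 libraries of 6 other mice by their labels, fitted with all 42 libraries of that time. It gave 0 DEG in edgeR and 0 in DESeq2, with 400 genes at an unadjusted p under 0.05 in edgeR (2.73% of 14653). *Prl2c3* had 1.30 ± 0.61 after 24 h and was higher in 5 of 6 mice, and *Spp1* had 1.30 ± 0.68 and was higher in 4 of 6. *Egr3* (0.97 ± 0.46) and *Ank* (0.56 ± 0.23) were higher in 6 of 6, and *Kcne4* (−1.37 ± 0.37), *Tgfb3* (−0.43 ± 0.39) and *Myl9* (−0.53 ± 0.28) were lower in 6 of 6. Of the same 422 genes, 380 had the same sign after 24 h (90.0%, against 65.4% of 10195 genes). The contractile list had a median of −0.29 after 24 h and −0.34 after 48 h, and mitotic genes 0.56 and 0.05. These medians are set side by side, and no test of the difference between times was made.

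**Figure D4:**
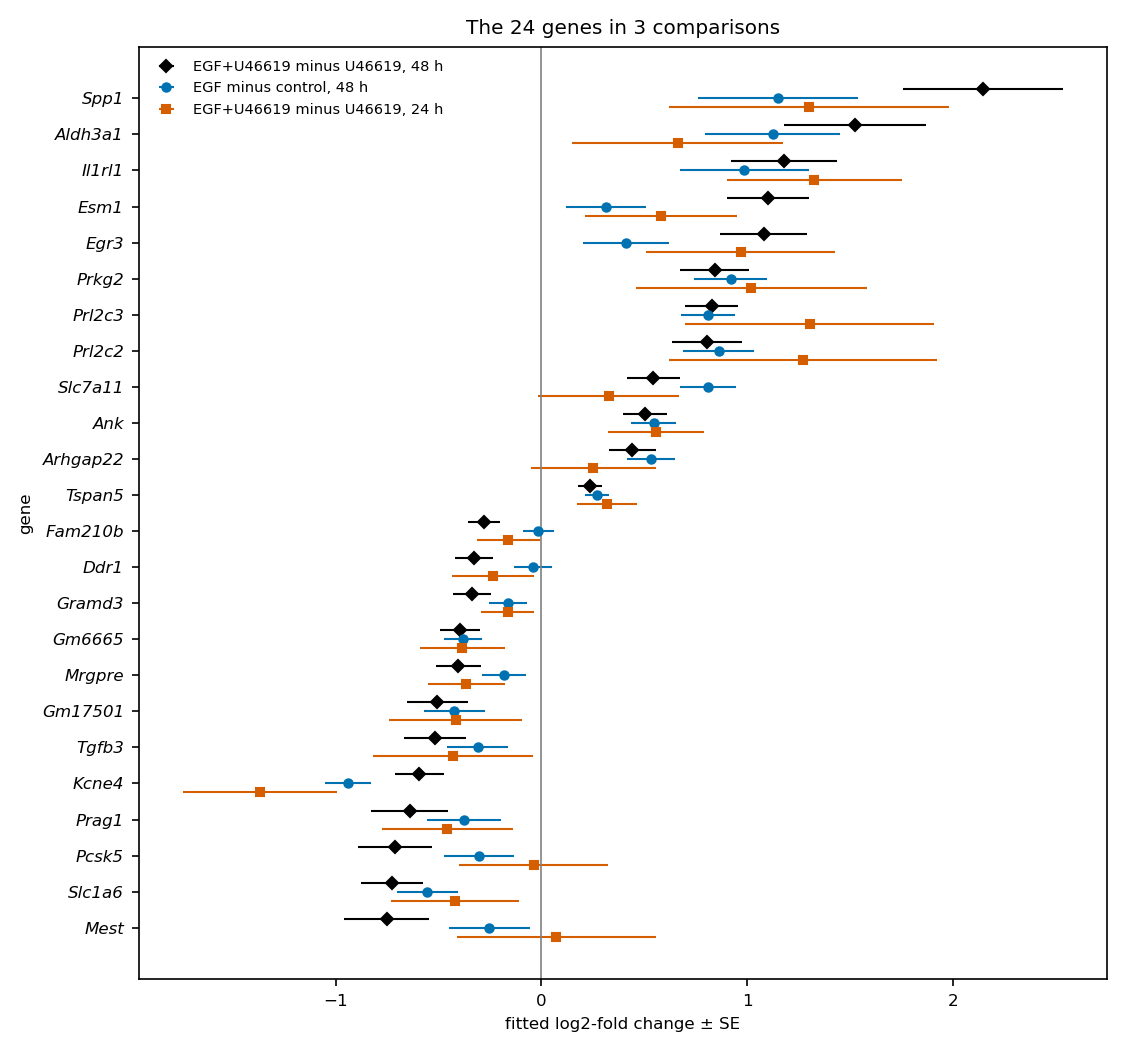
Fitted log2-fold change ± SE of the 24 genes for EGF+U46619 minus U46619 after 48 h, for EGF minus control after 48 h, and for EGF+U46619 minus U46619 after 24 h. The values of 48 h chose the genes. *Prl2c3* was at 0.83, 0.81 and 1.30 in the 3 comparisons, and SEs were widest after 24 h.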

How the data were processed

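Poly(A) RNA of the aVSMC cultures was sequenced by the authors, and the deposited files hold raw read counts per gene. Per the submitters' processing notes, reads were aligned with HISAT2 2.1.0 to mm10 and counted with featureCounts. The authors counted reads that map to several places, so near copies share counts. All 7075 genes of chromosomes 9, X, Y and MT are listed at 0 and were not analysed here.

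Counts of the 20 libraries of the EGF/U46619 batch (19936925 to 32797224 per library, which gives low counting error above 5 FPM) were fitted with edgeR 4.0.16 (filterByExpr, TMM, quasi-likelihood test) and DESeq2 1.42.0 in R 4.3.3, with culture set and treatment as terms. P-values were adjusted by Benjamini-Hochberg over all genes tested. FPM are counts relative to the library total after TMM scaling, and log2 differences within a set used a pseudocount of 0.5 FPM. limma 3.58.1 (voom), Python 3.11.15, NumPy 2.4.6, pandas 2.3.3 and Matplotlib 3.10.9 were also used. Coordinates came from the GENCODE annotation and promoters from RefSeq.

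The blocks follow the replicate numbers, which the methods tie to a mouse. Over 10170 genes, the deviations from the group means of same-numbered libraries correlated at 0.308 to 0.941 in 30 of 30 pairs. Pairs with the control library of set 3 lay at 0.308 to 0.634, and pairs without it at 0.633 or more. Sets 1 and 4 share a mouse number but correlated at 0.0783 (U46619) and 0.0560 (EGF+U46619). If replicates share an animal, p-values cover only the spread between these cultures.

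Named genes were the DEG, filled up to 12 per direction with the genes of smallest edgeR p that had at least 5 FPM and the same direction in 5 of 5 sets, the receptors and reference genes, and the 2 members of smallest p of each list. Other names were added after their values were seen, and members and lists were chosen with earlier results of these data known. The fitting script was tested on simulated data.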

Additional observations from a re-analysis of the deposited data

Results flagged for a closer look

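The log2 differences between EGF+U46619 and U46619 were examined in the 5 culture sets for 126 genes, and 10 had 1 set far from the other 4 by Dixon's criterion (a gap above 0.71 of the range), which chance gives in about 1 of 20 groups. Set 5 was the outlying one for 7 of them, set 2 for 2 and set 1 for 1. Of genes with a larger fall in set 5, *Agtr1a* had −2.20 in set 5 against −0.64 to −0.13 in the others, and *Lrrn4* had −2.25 in set 5 against −0.48 to 0.11 in the others. *Gm17501* had −1.14 in set 5 against −0.48 to −0.25 in the others, and *Mmp17* had −0.82 in set 5 against −0.30 to −0.22 in the others. Of genes with a larger rise in set 5, *Ccl11* had 2.27 in set 5 against −0.16 to 0.51 in the others. *Itih2* had 0.96 in set 5 against 0.34 to 0.41 in the others, and *Eno2* had 0.56 in set 5 against 0.12 to 0.23 in the others. In set 2, *Sod3* had −1.03 in set 2 against −0.35 to −0.09 in the others, and *Slc7a11* had 0.25 in set 2 against 0.57 to 0.63 in the others. In set 1, *Cidec* had −1.12 in set 1 against −0.25 to 0.10 in the others. The adipocyte marker *Cidec* and the mesothelial marker *Lrrn4* were at no more than 1.10 FPM in each of these cultures except *Lrrn4* in set 5 (7.36 FPM with U46619 and 1.16 FPM with EGF+U46619). For the same 126 genes, the EGF difference with U46619 was also set against that without it. The 2 differences went opposite ways, each in 5 of 5 sets, for 0 of these genes. This rule is strict and passes over genes whose fitted values differ in sign, such as *Angptl4*, so the 0 says little.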

How the results depend on the processing

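The count of 1 DEG rested on the fit. It was 9 with DESeq2 alone and with the likelihood ratio test of edgeR, 2 with limma voom, 2 without the FPM minimum, 11 without a low count filter and 0 with at least 10 counts in every library. It was 0 with all 40 libraries of 48 h, 0 with the mouse number in place of the culture set and 62 in the fit of the 10 libraries. Without the replicate block it was 0 for EGF+U46619 against U46619, 0 for EGF against control and, in the fit of the 10 libraries, 0 higher and 0 lower. Leaving out 1 set gave 0 to 1 DEG, 0 to 9 for EGF against control (8 with all sets, 0 without set 2, 1 without set 3, 2 without set 4, 5 without set 5) and, in the fit of the 10 libraries, 0 to 54 higher and 0 to 124 lower genes. EGF against control gave 100 with DESeq2 alone and 0 with all 40 libraries. Alternatives chosen after seeing the data gave 0 without the control library of set 3 and, for the 10 libraries (31 higher and 31 lower), 63 higher and 125 lower with DESeq2 alone, 19 higher and 21 lower with limma voom, and 33 higher and 47 lower with the cultures of a mouse number summed. The cause was not tested. The difference of the EGF effects and the 24 h comparison gave 0 in each alternative run. Of 403 values of 31 genes, 366 kept their direction and their side of the threshold, 23 passed it newly, 9 no longer passed it and 5 reversed. All 9 that no longer passed were values of *Prl2c3*, the only gene of the 31 that had passed. The other genes had no call to lose, so the 366 do not show that the 1 call was stable. Of the reversed values, *Egfr* was −0.040 without the replicate block and −0.068 to 0.092 on leaving out 1 set (below 0 without set 3 and, at −0.022, without set 4). *Gapdh* was −0.12 to 0.036 (above 0 without set 1) and *Eef2* −0.047 to 0.053 (below 0 without set 5). Genes under about 5 FPM, such as *Agtr1a*, rest on few reads.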
